A study of Mus musculus with 18 samples.

Results

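The 8 genes described here bind zinc in the hepatocyte or move zinc and manganese across its membranes: the metallothioneins Mt1 and Mt2, the transcription factor gene Mtf1, the exporter genes Slc30a1 and Slc30a10, and the importer genes Slc39a14, Slc39a8 and Slc39a5. They are 8 of the 25266 genes listed in the liver RNA-seq tables of 18 mice, of which 20071 were above 0 in at least 1 mouse, and they were taken by their symbols. The choice was made with earlier values of these data in view. Mt1 and Mt2 had been singled out by their difference between LKO mice on the 2 diets, so that contrast is given below as a description with no test, and so are the genotype contrasts of Mt1 and Mt2, which share its LKO mice. All 8 genes were tested between the diets in FF mice. That contrast contains no FF mice, but the main fit takes its spread from all 18 mice. Whether values of FF mice also had a part in the choice of the 8 genes is not known.

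Metallothioneins are small cysteine-rich proteins that bind zinc and copper, and the liver is a main site of their synthesis. Free zinc activates MTF-1, the protein of Mtf1, which binds metal response elements in the promoters of Mt1, Mt2 and Slc30a1, and glucocorticoids, cytokines and oxidative stress are also known to raise metallothionein RNA. Proteins of the Slc30 (ZnT) family carry metal out of the cytosol, and those of the Slc39 (ZIP) family carry it in.

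Male C57BL/6 mice were fed from 8 weeks of age for 16 weeks on a control diet (CD, 10% of calories as fat) or a high-fat diet (HFD, 32.5%). FF mice carry floxed alleles of Ppp6r3, which encodes SAPS3, a regulatory subunit of protein phosphatase 6. LKO mice carry the same floxed alleles and a Cre recombinase under the promoter of albumin, a gene of hepatocytes. Whether the other cells of the liver keep an intact gene was not tested. Each genotype had 4 mice on CD and 5 on HFD, numbered as separate animals in the labels. The study asked how loss of SAPS3 in the liver alters its response to the diets.

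The tables give RPKM, the reads of a gene per kilobase of its length scaled by the depth of the library. The depth was 23.4 to 37.0 M reads per mouse. Ppp6r3 was at 8.38 to 10.98 RPKM in FF CD mice and 3.88 to 4.08 in LKO CD mice, and at 7.55 to 8.82 in FF HFD mice and 4.22 to 4.87 in LKO HFD mice, so the groups did not overlap on either diet (limma, adjusted p = 6.72e-07 and 7.14e-06). The summed RPKM of 6 hepatocyte markers was 30017 to 48008 in every mouse. Over all tested genes, LKO HFD mice 3, 4 and 5 clustered apart from LKO HFD mice 1 and 2, and results that rest on them are also given without them. In whole liver, fewer cells of a type and less RNA per cell cannot be told apart.

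Promoter sequences from RefSeq (GRCm38.p6, which has the coordinates of mm10, the build in the submitters' processing notes) were found for 7 of the 8 genes. Those of the metallothionein genes are shown because metal response elements are the best known route of their regulation. Both genes lie on the plus strand of chromosome 8 (GENCODE M21 annotation on GRCm38), Mt2 at chr8:94172664-94173568 and Mt1 at chr8:94179082-94180327, 5514 bases apart. The sequences are the 250 bases before the RefSeq transcription start of each gene, chr8:94178839-94179088 for Mt1 and chr8:94172368-94172617 for Mt2, 5′ to 3′, with matches on either strand to the core of the metal response element, TGCACNC or TGCGCNC, in capitals.
Mt1: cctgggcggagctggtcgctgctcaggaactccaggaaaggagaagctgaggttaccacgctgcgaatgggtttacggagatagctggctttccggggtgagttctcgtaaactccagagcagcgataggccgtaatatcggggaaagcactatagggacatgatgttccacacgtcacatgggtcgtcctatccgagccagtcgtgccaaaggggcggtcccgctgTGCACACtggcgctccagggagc
Mt2: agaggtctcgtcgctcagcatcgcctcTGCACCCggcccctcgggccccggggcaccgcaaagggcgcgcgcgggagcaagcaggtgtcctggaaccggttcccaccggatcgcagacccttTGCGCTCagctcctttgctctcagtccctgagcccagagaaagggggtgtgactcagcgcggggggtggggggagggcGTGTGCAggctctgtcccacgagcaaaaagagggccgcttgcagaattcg
The Mt1 window held 1 core, TGCACAC, that ended 17 bases before the start. The Mt2 window held 3 cores, TGCACCC and TGCGCTC on the plus strand and GTGTGCA, which is a match on the minus strand. GENCODE also places starts 122 and 152 bases downstream of the Mt1 window. Its Mt2 starts all lie downstream of the Mt2 window, by 46 and 242 bases. From the first GENCODE start to the start codon, 229 bases of Mt1 held 4 further cores and 184 bases of Mt2 held 3. Among the other genes, the Slc30a10 window held 3 cores, the Slc30a1 window 1 and the Mtf1 window none. Slc39a5 and Slc39a8 have 2 starts each, with 1 core at 1 of them and none at the other. Of 32851 mouse promoter windows of this length, 21.4% held at least 1 core and 1.26% at least 3. A match is a string of letters and is not evidence of binding.

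Both metallothionein genes were higher on HFD than on CD in each genotype. In FF CD mice Mt1 was at 2.41, 3.24, 2.76 and 6.84 RPKM, and in FF HFD mice it was at 25.7, 44.8, 39.9, 34.2 and 19.5. In LKO CD mice it was at 4.45, 20.4, 2.67 and 9.15 RPKM, and in LKO HFD mice at 29.4, 28.5, 119, 26.7 and 298. The lowest HFD mouse of either genotype lay above every CD mouse of the same genotype, whereas LKO CD mouse 2 reached the level of the lowest FF HFD mouse. The reads of Mt1 numbered 35 to 3949 per mouse. Ordered by median, the groups were FF CD at 3.00 RPKM, LKO CD at 6.80, LKO HFD at 29.4 and FF HFD at 34.2, and each neighbouring pair in this order overlapped except LKO CD and LKO HFD.

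Mt2 followed the same groups at a lower level. It was at 0.729, 1.51, 0.384 and 1.84 RPKM in FF CD mice and at 13.1, 20.6, 19.5, 21.8 and 6.63 in FF HFD mice. In LKO CD mice it was at 0.578, 3.64, 1.07 and 2.11 RPKM, and in LKO HFD mice at 10.4, 10.7, 42.6, 9.73 and 167. No HFD mouse was as low as any CD mouse of either genotype. The lowest FF CD value rests on 5 reads and the highest LKO HFD value on 2266 reads.

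**Figure D1:**
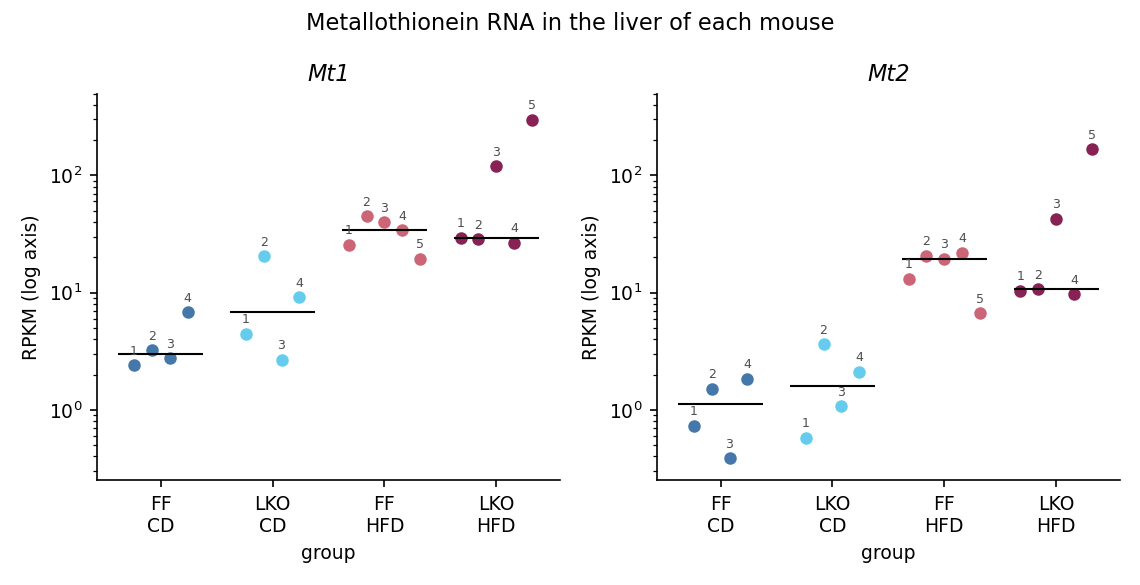
RPKM of Mt1 (left) and Mt2 (right) in each of the 18 mice on a log axis, by group, with the mouse number above each point and a line at the group median. HFD mice lie above CD mice of the same genotype for both genes, and LKO HFD mice 3 and 5 lie above all others, at 119 and 298 RPKM for Mt1.

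In FF mice the mean of Mt1 was 8.61-fold higher on HFD than on CD (32.8 ± 10.3 against 3.81 ± 2.05 RPKM, SD, n = 5 and 4). On the log2(RPKM + 1) scale, which understates changes of low genes, the difference was 2.84 ± 0.62 (SE) with an adjusted p of 0.00351 (limma, Benjamini-Hochberg over 11090 genes). For Mt2 the means were 16.3 ± 6.37 and 1.12 ± 0.675 RPKM (SD, n = 5 and 4), a 14.6-fold difference. Its log2 difference was 2.99 ± 0.63 with an adjusted p of 0.00299 (limma). The exact permutation test over the mice gave p = 0.0159 (two-sided) for each of them, the smallest value that 4 against 5 mice allow. Mt1 and Mt2 were the members called in FF HFD against FF CD mice (adjusted p under 0.05 and a fold above 1.5), 2 of the 7 that passed the filter of a mean RPKM of 0.5, where 6.6% of all tested genes were called (567 higher and 165 lower, or 410 and 236 after each mouse was centred on its median). Their groups did not overlap, which held for 18.3% of all tested genes.

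In LKO mice the mean of Mt1 was 100 ± 117 RPKM on HFD and 9.16 ± 7.95 on CD (SD, n = 5 and 4), and that of Mt2 was 48.0 ± 67.8 and 1.85 ± 1.35. The ratio of the means was 10.96 for Mt1 and 25.9 for Mt2, while the ratio of the medians was 4.33 and 6.73. Without LKO HFD mice 3, 4 and 5, an exclusion chosen after seeing the data, the ratio of the means was 3.16 for Mt1 and 5.69 for Mt2. Without LKO HFD mouse 5 alone it was 5.57 and 9.92, and without LKO CD mouse 2 it was 18.5 and 38.3. Together with Slc39a14 they were the members past the thresholds in LKO HFD against LKO CD mice, 3 of 7 beside 1.27% of all tested genes, which is a description since this contrast was used in the choice. Their groups did not overlap there, as for 9.04% of all tested genes. Without LKO HFD mice 3, 4 and 5, none of the 7 was past the thresholds there, beside 5 of all 11090 tested genes (141 with all mice). Likewise none of the 7 was past them without LKO CD mouse 1, LKO CD mouse 3 or LKO HFD mouse 3, beside 30, 17 and 20 of all tested genes.

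Between the genotypes the metallothioneins had means and medians that pointed apart on HFD but not on CD. On HFD the mean of Mt1 was 3.06 times as high in LKO as in FF mice, but the ratio of the medians was 0.859. For Mt2 the ratios were 2.94 and 0.55. LKO HFD mice 3 and 5 lay above all FF HFD mice for both genes, and LKO HFD mice 1, 2 and 4 lay within the range of the FF HFD mice. The ratio of the means was 1.55 for Mt1 and 1.12 for Mt2 without LKO HFD mouse 5, and 0.882 and 0.645 without LKO HFD mice 3, 4 and 5. On CD the ratio of the means between LKO and FF mice was 2.40 for Mt1 and 1.66 for Mt2. The ratio of the medians was 2.27 and 1.42, and the groups overlapped. Without LKO CD mouse 2 the ratio of the means was 1.42 for Mt1 and 1.12 for Mt2.

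The metallothioneins also varied together from mouse to mouse. After the group means were removed, Pearson's r between Mt1 and Mt2 over 18 mice was 0.937 and Spearman's rho 0.932 (permutation of mice within groups, p = 7e-05 for each and 0.00196 after adjustment over the 28 pairs of members). Without LKO CD mouse 2 and LKO HFD mouse 5, the mice farthest from the median of Mt1, r was 0.899. It was the only pair of the 28 with an adjusted p under 0.05. The next pair by Pearson's r was Mtf1 and Slc39a14, at 0.731 (permutation, adjusted p = 0.175). The ratio of Mt1 to Mt2 had a median of 3.51 in FF CD mice, 4.96 in LKO CD mice, 2.05 in FF HFD mice and 2.74 in LKO HFD mice, with a range of 1.57 to 7.69 over all mice. Mt1 and Mt2 resemble each other in sequence, and how reads that match both were counted is not given in the sources used here.

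**Figure D2:**
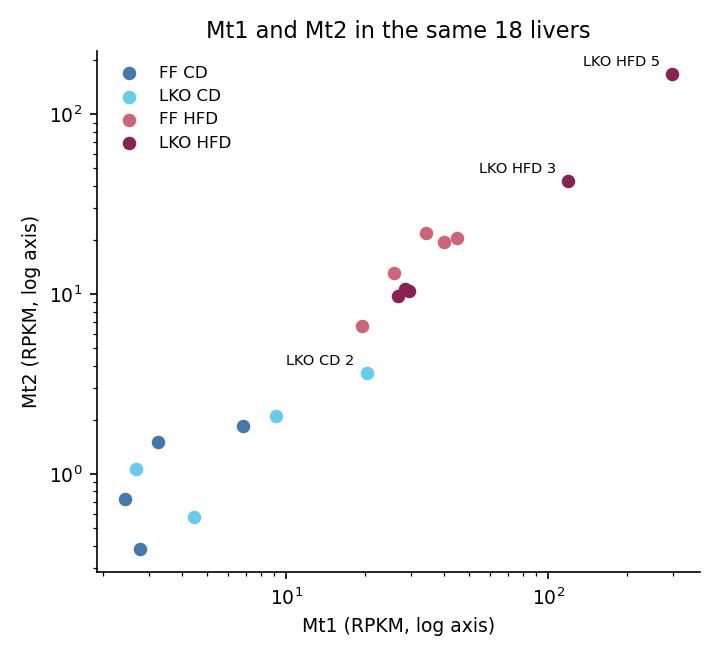
RPKM of Mt2 against RPKM of Mt1 in the same 18 mice, both on log axes, with 1 point per mouse coloured by group. The points rise together from FF CD mice at 2.41 to 6.84 RPKM of Mt1 to LKO HFD mouse 5 at 298 RPKM of Mt1 and 167 RPKM of Mt2.

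The genes whose pattern over the 18 mice was most like the mean of Mt1 and Mt2 were Nlrp12 (r = 0.943), Egr1 (0.917), Litaf (0.917), Gdf15 (0.909) and Sptlc2 (0.907). These are Pearson correlations of log2(RPKM + 1), given with no test, and they include the differences between groups. Nlrp12 encodes an intracellular sensor of the NLR family, Egr1 an immediate early transcription factor and Gdf15 a secreted stress cytokine. Egr1 was at 8.50 and 13.8 RPKM in LKO HFD mice 3 and 5 and at 0.447 to 4.41 in the other mice. Litaf was at 56.1 and 63.2 RPKM in the same mice and at 17.96 to 36.5 in the others. Nlrp12 was at 12.2 and 12.6 RPKM in them and at 10.02 in FF HFD mouse 4, the next highest. The other genes did not set both mice apart. Gdf15 was at 2.30 RPKM in LKO HFD mouse 3 and 2.92 in FF HFD mouse 1. Sptlc2 was at 3.35 RPKM in LKO HFD mouse 5 and 3.47 in FF HFD mouse 2.

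Mtf1 (chr4:124802104-124849800, plus strand), whose protein senses zinc, was at 1.91 to 3.01 RPKM in all mice and moved little. It was at 3.00, 2.29, 2.44 and 2.11 RPKM in FF CD mice, at 2.14, 1.91, 2.11 and 2.29 in LKO CD mice, at 2.27, 2.22, 2.17, 2.31 and 2.11 in FF HFD mice and at 1.97, 2.17, 2.98, 3.01 and 2.35 in LKO HFD mice. All groups overlapped. The log2 difference was -0.10 ± 0.09 between the diets in FF mice, -0.15 ± 0.10 between the genotypes on CD and 0.11 ± 0.09 between them on HFD (SE; adjusted p of 0.476, 0.806 and 0.505, limma). Mtf1 overlaps a gene on the other strand, 1110065P20Rik, at a mean of 4.68 RPKM, and whether the counting used the strand is not given in the sources used here.

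Slc30a1 (chr1:191906767-191913247, plus strand) encodes ZnT1, the zinc exporter of the plasma membrane. It was at 8.43, 8.39, 8.42 and 5.63 RPKM in FF CD mice and at 6.34, 5.82, 4.68, 5.57 and 5.15 in FF HFD mice. In LKO CD mice it was at 7.83, 7.38, 6.93 and 6.56 RPKM, and in LKO HFD mice at 6.90, 6.84, 10.0, 8.08 and 5.65. On HFD, 4 of the 5 LKO mice lay above every FF mouse, and FF CD mouse 4 lay far below the other FF CD mice. Between the diets in FF mice the log2 difference was -0.41 ± 0.13 (SE; limma, adjusted p = 0.0344; exact permutation p = 0.0476), with a fold on that scale under 1.5. It pointed down where Mt1 and Mt2 rose, and its adjusted p was 0.00331 to 0.106 over the alternatives of processing and left-out mice. Between LKO and FF mice on HFD it was 0.37 ± 0.12 (SE; limma, adjusted p = 0.104; exact permutation p = 0.0238), and the difference between the diet responses of the genotypes was 0.45 ± 0.19 (SE; limma, adjusted p = 0.233).

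Slc30a10 (chr1:185454848-185468762, plus strand) encodes a manganese exporter. In FF CD mice it was at 5.33, 6.87, 4.51 and 2.47 RPKM, in LKO CD mice at 3.37, 2.90, 4.32 and 2.93, in FF HFD mice at 4.82, 2.22, 2.70, 2.97 and 3.11 and in LKO HFD mice at 2.74, 2.42, 5.78, 4.98 and 4.30. All groups overlapped, and the ratio of the highest to the lowest mouse of a group reached 2.78. The log2 difference was -0.45 ± 0.23 between the diets in FF mice, -0.36 ± 0.24 between the genotypes on CD and 0.26 ± 0.22 on HFD (SE; adjusted p of 0.182, 0.820 and 0.544, limma). Without FF CD mouse 4 the first of these was -0.67 with an adjusted p of 0.0375 (limma), past both thresholds, and its adjusted p was at most 0.453 over the alternatives.

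Slc39a14 (chr14:70303469-70351425, minus strand) encodes ZIP14, an importer of zinc, manganese and iron that is known as an acute phase gene in hepatocytes, and it was the transporter with the highest level, at a mean of 33.0 RPKM over the 18 mice. It was at 33.2, 29.1, 29.6 and 23.8 RPKM in FF CD mice, at 28.3, 27.5, 25.9 and 25.6 in LKO CD mice and at 30.01, 30.3, 21.7, 36.5 and 25.2 in FF HFD mice. In LKO HFD mice it was at 28.6, 33.4, 59.6, 51.4 and 54.1 RPKM. LKO HFD mice 3, 4 and 5, which clustered apart over all genes, lay above every other mouse, and LKO HFD mice 1 and 2 lay within the range of the FF HFD mice.

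The log2 difference of Slc39a14 between LKO and FF mice on HFD was 0.61 ± 0.17 (SE, n = 5 and 5; limma, adjusted p = 0.0561; exact permutation p = 0.0556). It passed both thresholds without LKO HFD mouse 1 (0.76; limma, adjusted p = 0.00887), LKO HFD mouse 2 (0.70, 0.0399) or FF HFD mouse 4 (0.70, 0.0492). The log2 difference was 0.12 without LKO HFD mice 3, 4 and 5 (limma, adjusted p = 0.792), and the ratio of the means 1.08 in place of 1.58. Between the diets in FF mice the log2 difference was -0.02 ± 0.19 (SE; limma, adjusted p = 0.957), and the difference between the diet responses of the genotypes was 0.70 ± 0.26 (SE; limma, adjusted p = 0.175) and 0.85 without LKO HFD mouse 1 (adjusted p = 0.0435), but 0.22 without LKO HFD mice 3, 4 and 5 (adjusted p = 0.792). In LKO mice the ratio of the means between the diets was 1.69, and 1.16 without LKO HFD mice 3, 4 and 5.

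The genes most like Slc39a14 over the 18 mice were Stat3 (r = 0.935), Fndc3b (0.926) and Dnajc3 (0.911), again with no test. Stat3 encodes the transcription factor that acts downstream of interleukin-6. It was at a mean of 29.4 ± 11.04 RPKM in LKO HFD mice and 17.3 ± 3.23 in FF HFD mice (SD, n = 5 and 5), a log2 difference of 0.66 ± 0.21 (SE; limma, adjusted p = 0.0874), and 0.05 without LKO HFD mice 3, 4 and 5.

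Slc39a8 (chr3:135825279-135888572, plus strand) encodes ZIP8, another importer of zinc and manganese, and had the narrowest relative range of the members, 4.36 to 5.86 RPKM on 420 to 848 reads. In FF CD mice it was at 4.36, 4.45, 4.76 and 4.52 RPKM and in FF HFD mice at 5.86, 5.50, 5.40, 5.35 and 4.72, with 4 of the 5 HFD mice above every CD mouse. It was at 4.395 to 5.05 RPKM in LKO CD mice and at 4.38 to 5.71 in LKO HFD mice. The log2 difference between the diets in FF mice was 0.20 ± 0.07 (SE; limma, adjusted p = 0.0553; exact permutation p = 0.0317), beside a median of 0.07 over all tested genes. Its adjusted p was 0.0124 to 0.223 over the alternatives. Between the genotypes it was 0.06 ± 0.08 on CD and -0.05 ± 0.07 on HFD (SE; adjusted p of 0.931 and 0.750, limma). The summed RPKM of 6 markers of sinusoidal endothelial cells, all of them detected, was 17.8 to 40.01 in FF CD mice and 46.7 to 74.3 in FF HFD mice, and its part in the results of FF mice was not tested.

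Slc39a5 (chr10:128395931-128401229, minus strand) encodes ZIP5, a zinc importer of the basolateral membrane, and was the member with the lowest level, at a mean of 0.289 RPKM, under the filter. The FF CD mice had 7, 9, 2 and 0 reads, the LKO CD mice 13, 14, 9 and 12, the FF HFD mice 55, 50, 32, 28 and 24 and the LKO HFD mice 9, 19, 11, 7 and 9. In RPKM the FF CD mice were at 0 to 0.168, the LKO CD mice at 0.156 to 0.243, the FF HFD mice at 0.444 to 0.895 and the LKO HFD mice at 0.129 to 0.356. Every FF HFD mouse lay above every mouse of the other groups. In FF CD mouse 4 a count of 0 allows up to 3 reads, or 0.0552 RPKM, counting error alone.

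In FF mice the mean of Slc39a5 was 7.95-fold higher on HFD than on CD (0.614 ± 0.185 against 0.0773 ± 0.0733 RPKM, SD, n = 5 and 4; exact permutation p = 0.0159, two-sided). The fold rests on few CD reads and was 13.0 without FF CD mouse 2 and 5.96 without FF CD mouse 4. On HFD the mean in LKO mice was 0.318 of that in FF mice (exact permutation p = 0.00794, two-sided, n = 5 and 5). Of the tested genes, 4.67% had groups that did not overlap in this contrast. These p-values are the smallest that the designs allow and are unadjusted, among 20 such tests of members. Fitted over all 20071 detected genes without the filter, the log2 differences were 0.58 ± 0.07 and -0.43 ± 0.07 (SE; adjusted p of 0.000245 and 0.00549, limma), with folds on that scale under 1.5. In the same fit the difference between the diet responses of the genotypes was -0.60 ± 0.10 (SE; limma, adjusted p = 0.0114). For that difference 169 of the 20071 genes were called. On CD the means were 0.209 in LKO and 0.0773 RPKM in FF mice, a ratio of 2.71 (4.43 without FF CD mouse 2), and the groups overlapped (exact permutation p = 0.0571; 4 against 4 mice cannot go below 0.0286).

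Without LKO HFD mice 3, 4 and 5 the ratio of Slc39a5 between LKO and FF mice on HFD was 0.428, and both remaining mice lay below every FF HFD mouse (exact permutation p = 0.0952, the smallest that 2 against 5 mice allow). Slc39a5 overlaps Ankrd52 on the other strand, which was at a mean of 3.54 RPKM. Slc39a5 is also known in the exocrine pancreas, whose 6 markers summed to 7.42 to 15.5 RPKM in FF CD mice and 2.14 to 7.05 in FF HFD mice. Of these markers only Cela1 passed the filter, and it was called lower on HFD in FF mice (-1.08 ± 0.29 on the log2 scale, SE; limma, adjusted p = 0.0148). The part of the pancreas markers in the values of Slc39a5 was not tested. The genes most like Slc39a5 were Rcan2 (r = 0.930 over 18 mice), Slc22a27 (0.922) and Suclg2 (0.912).

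**Figure D3:**
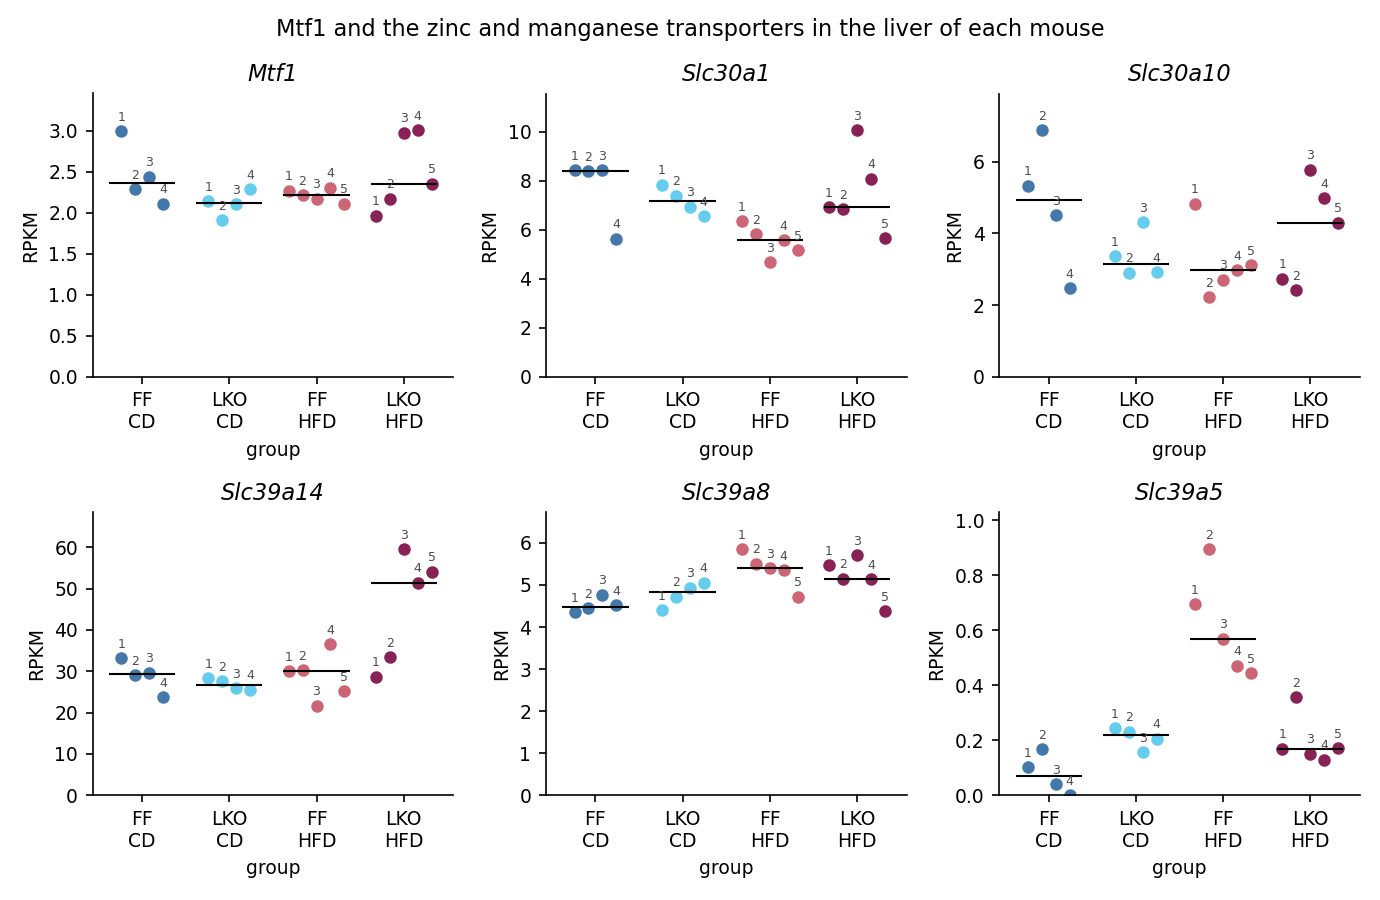
RPKM of Mtf1 and the 5 transporter genes in each of the 18 mice by group, on linear axes from 0, with the mouse number above each point and a line at the group median. Slc39a14 is high in LKO HFD mice 3, 4 and 5, at 51.4 to 59.6 RPKM, and Slc39a5 in FF HFD mice, at 0.444 to 0.895 RPKM.

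Of the 5 members past the filter other than Mt1 and Mt2, none was called between the genotypes on CD, where 0.225% of all tested genes were called, none on HFD, beside 2.07%, and none for the difference between the diet responses, beside 2.44%. An unadjusted p under 0.05 (limma) was found for none of them on CD, beside 851 of all 11090 tested genes. It was found for 2 on HFD (Slc30a1 and Slc39a14), beside 2145, and for the same 2 in the difference of the responses, beside 1830. The median log2 difference of the 5 members was -0.09 on CD and 0.26 on HFD, beside 0.03 and 0.03 over all tested genes, and without LKO HFD mice 3, 4 and 5 the median on HFD was -0.01. The diet contrasts share no mice, but each shares a group with each genotype contrast, so the contrasts are not independent of each other.

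**Figure D4:**
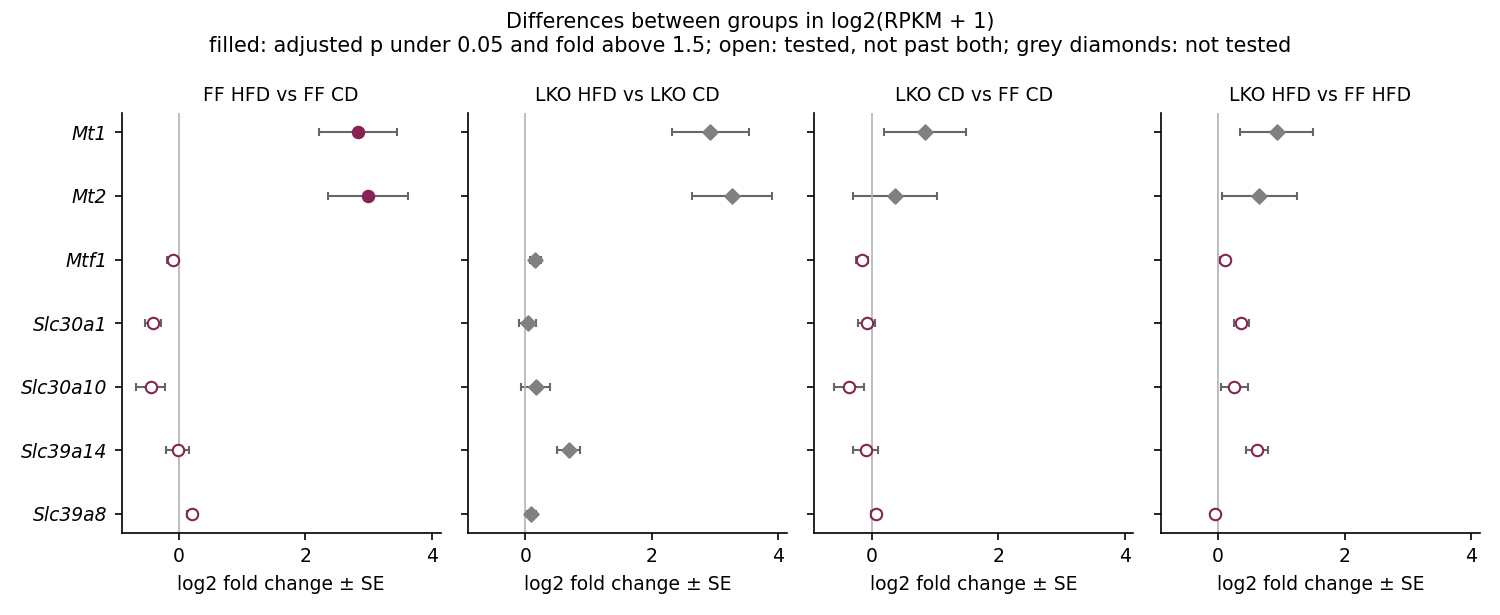
Difference of the group means of log2(RPKM + 1) with its SE for the 7 members past the filter, in 4 contrasts. Filled points passed an adjusted p of 0.05 and a fold of 1.5, open points were tested and did not, and grey diamonds were not tested. Mt1 and Mt2 lie at 2.84 and 2.99 between the diets in FF mice.

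Of 21 further genes of these families, 14 passed the filter, and none was called in any of the 5 contrasts (limma; at most 3 had an unadjusted p under 0.05 in a contrast). Over all tested genes 0.225% to 6.6% were called in these contrasts, so a count of 0 of 14 lies near the background. An unadjusted p under 0.05 (limma) was found for 851 to 3734 of the 11090 tested genes. Mt3 and Mt4, the metallothioneins of brain and of stratified epithelia, were at 0 in every mouse. Slc39a1 (ZIP1) and Slc39a7 (ZIP7) had the highest levels of the list, at means of 29.1 and 22.7 RPKM over 18 mice. Slc39a9, the gene of the list past an adjusted p of 0.05 between the diets in FF mice, differed by 0.32 ± 0.08 on the log2 scale (SE; limma, adjusted p = 0.00916). Slc30a5, a transporter of the secretory pathway, was the gene of the list past it between the genotypes on HFD, at 0.54 ± 0.14 (SE; limma, adjusted p = 0.0413) and 0.17 without LKO HFD mice 3, 4 and 5. Both were named after their values were seen.

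**Figure D5:**
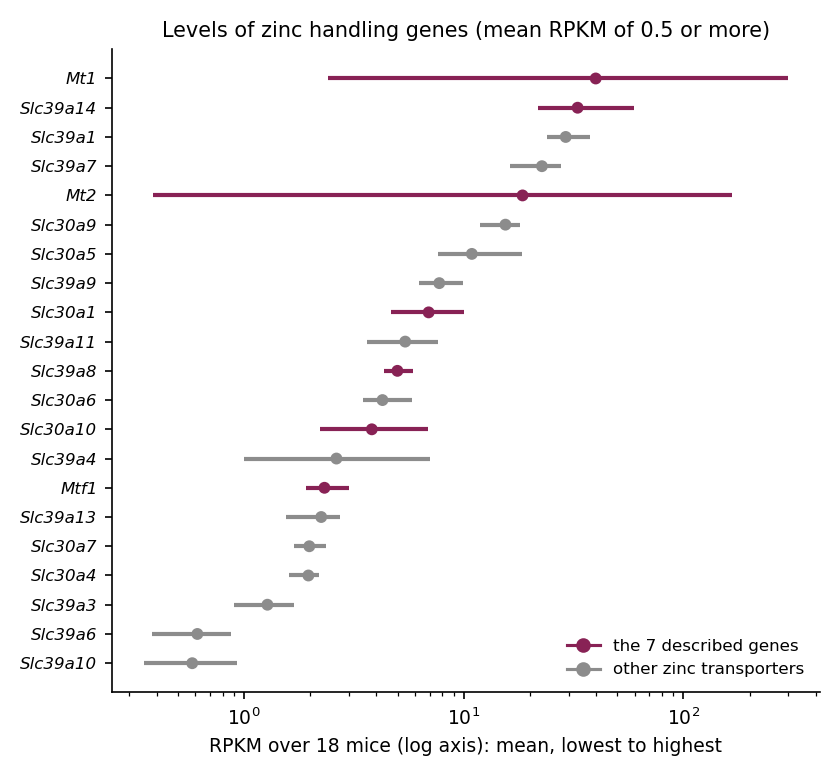
Mean RPKM over the 18 mice (points) and lowest to highest mouse (lines), on a log axis, of the 21 genes of zinc handling with a mean RPKM of 0.5 or more, with the 7 members in purple. Mt1 and Mt2 have the widest ranges, from 2.41 to 298 and from 0.384 to 167 RPKM.

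Genes of the other known inputs to metallothionein RNA were read from lists. The list of NRF2, the regulator of the antioxidant response, holds targets of NRF2 and Nfe2l2, the gene that encodes it. Of its 9 tested genes, 6 were called higher in FF HFD than in FF CD mice and none lower, beside 6.6% of all tested genes called. The median log2 difference of the 9 was 0.88, beside 0.07 over all tested genes. The 6 included Gsta1 (3.78 ± 0.45), Nqo1 (1.54 ± 0.17) and Srxn1 (1.10 ± 0.16 on the log2 scale, SE; limma, adjusted p of 2.27e-05, 1.29e-05 and 0.000144). On HFD, Gsta1 and Nqo1 were lower in LKO than in FF mice, by -1.67 ± 0.42 and -0.87 ± 0.16 (SE; limma, adjusted p of 0.033 and 0.0051). The diet responses of Gsta1, Nqo1 and Srxn1 differed between the genotypes (limma, adjusted p of 0.00442, 0.00156 and 0.0243). Of all tested genes, 2.07% were called between the genotypes on HFD and 2.44% for the difference between the diet responses. Without LKO HFD mice 3, 4 and 5, Gsta1 and Nqo1 differed by -2.31 and -0.76 between the genotypes on HFD and did not pass (limma, adjusted p of 0.093 and 0.1997), while their diet responses still differed (limma, adjusted p of 0.013 and 0.0365) and that of Srxn1 had nearly the same size with fewer mice, -0.98 in place of -0.97 (limma, adjusted p = 0.104). None of the 9 was called between the genotypes on CD, beside 0.225% of all tested genes. There, 5 of the 9 had an unadjusted p under 0.05 (limma), beside 851 of all 11090 tested genes.

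Of 14 genes of interleukin-6 signalling and the acute phase, the fibrinogen genes Fga, Fgb and Fgg were called between the genotypes on HFD (3 of 14, beside 2.07% of all tested genes), and all were higher in LKO mice. Their log2 differences were 0.85 ± 0.15, 0.91 ± 0.14 and 0.86 ± 0.16 (SE; limma, adjusted p of 0.00361, 0.000957 and 0.00436). Their diet responses also differed between the genotypes, by 1.07, 1.07 and 1.06 (limma, adjusted p of 0.0134, 0.00734 and 0.0193). Of all tested genes, 2.44% were called for the difference between the diet responses. The differences of the fibrinogen genes on HFD were 0.51, 0.59 and 0.50 without LKO HFD mice 3, 4 and 5 and did not pass (limma, adjusted p of 0.226, 0.114 and 0.236). None of the 14 was called between the diets in FF mice or between the genotypes on CD, beside 6.6% and 0.225% of all tested genes. An unadjusted p under 0.05 (limma) was found for 6 and 1 of them, beside 3734 and 851 of all 11090 tested genes. Lcn2, which encodes lipocalin-2, was at 1.89 between the diets in FF mice (limma, adjusted p = 0.0703) and was called there when LKO HFD mice 3, 4 and 5 were left out of the shared fit (adjusted p = 0.0406). The part of these genes in the metallothionein values was not tested. The median of the list was 0.20 between the diets in FF mice and 0.35 between the genotypes on HFD, beside 0.07 and 0.03 over all tested genes.

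Of 10 genes of the glucocorticoid response, 1 was called between the diets in FF mice, close to the share of 6.6% over all tested genes. This was Lpin1, which was lower on HFD by -0.88 ± 0.29 (SE; limma, adjusted p = 0.0377). Dusp1 was the 1 gene called between the genotypes on HFD, beside 2.07% of all tested genes. It was lower in LKO mice by -1.50 ± 0.18 (SE; limma, adjusted p = 9.95e-05), and by -1.74 without LKO HFD mice 3, 4 and 5. The median of the list was -0.20 between the diets in FF mice and -0.34 between the genotypes on HFD, beside 0.07 and 0.03 over all tested genes. None of the 10 was called between the genotypes on CD or for the difference between the diet responses, beside 0.225% and 2.44% of all tested genes. An unadjusted p under 0.05 (limma) was found for 1 in each, beside 851 and 1830 of all 11090 tested genes. Of 10 tested genes of copper handling, none was called in any contrast, beside 0.225% to 6.6% of all tested genes. At most 2 had an unadjusted p under 0.05 (limma), beside 851 to 3734 of all 11090 tested genes. In LKO mice between the diets, given as a description, Fga, Fgg, Stat3, Hmox1 and Fkbp5 were past the thresholds and higher on HFD, and Lpin1 was lower, beside 1.27% of all tested genes. None of these was past them without LKO HFD mice 3, 4 and 5, where Fga changed from 0.63 to 0.29, Fgg from 0.64 to 0.28, Stat3 from 0.996 to 0.385 and Fkbp5 from 0.95 to 0.40 on the log2 scale, while Hmox1 was at 0.84 and Lpin1 at -1.14.

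Markers of other cells were low beside those of hepatocytes. The summed RPKM was highest for red blood cells, at 71.8 to 600 over 18 mice, and between 15.3 and 65.9 for cholangiocytes, 1.21 and 7.56 for neutrophils, 0.856 and 2.64 for lymphocytes and 0 and 1.27 for adipocytes. The pancreas marker Cel was at 0 in every mouse. Some moved with the diet in FF mice, in which 6.6% of all tested genes were called. Kupffer cell markers summed to 40.2 to 58.1 in FF CD and 48.6 to 91.9 in FF HFD mice, with Adgre1 and Vsig4 called higher of 6, and were at 33.5 to 54.6 in LKO CD and 46.8 to 91.4 in LKO HFD mice. Stellate cell markers summed to 85.8 to 135 in FF CD and 114 to 151 in FF HFD mice, with Col1a1 called higher of 6, and were at 102 to 135 in LKO CD and 82.4 to 164 in LKO HFD mice. Of the 6 endothelial markers, Clec4g, Lyve1 and Pecam1 were called higher, as was S100a9 of the neutrophil markers. Of the 6 hepatocyte markers, Apoa1 was called lower on HFD in FF mice (-0.72 ± 0.15 on the log2 scale, SE; limma, adjusted p = 0.00276), as was Cela1 of the pancreas markers. Neutrophil markers summed to 1.31 to 2.23 in LKO CD and 3.46 to 6.55 in LKO HFD mice, which did not overlap, and to 1.21 to 2.27 in FF CD and 2.22 to 7.56 in FF HFD mice. The part of these cells in the metallothionein values was not tested.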

How the data were processed

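RNA of whole liver was sequenced from 18 mice in 4 groups, taken from the labels, which number the mice of each group. Per the submitters' processing notes, reads were aligned with HISAT2 2.0.4 to mm10 and processed in Partek. The authors deposited RPKM values per gene and mouse, used here as deposited. The annotation and the handling of strand and of reads that match several genes are not given in the sources used here. No scaling between mice beyond depth was applied.

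Depth was recovered from the steps between low RPKM values of single-exon genes, and whole reads (within 0.05 of a read) for Mt1, Mt2, Slc39a5, Slc39a8 and Ppp6r3. A linear model on log2(RPKM + 1) with 1 coefficient per group was fitted by limma (version 3.58.1, R 4.3.3; lmFit, contrasts.fit and trended eBayes) to 11090 genes whose RPKM averaged 0.5 or more, two-sided, with Benjamini-Hochberg adjustment over all tested genes. A gene was called at an adjusted p under 0.05 and a fold above 1.5, the thresholds of the study. Slc39a5, under the filter, was tested by exact permutation of the mice (scipy 1.17.1), and correlations by 100000 permutations within groups. p-values measure the spread between the numbered mice. The fit was tested on simulated data.

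The members and lists were chosen with earlier results of these data known. Named genes are the members, up to 4 called genes per list and contrast, and the 5 or 3 genes most like a member over 18 mice. Metal response elements were searched in 250 bases before RefSeq starts.

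Each result was recomputed with a pseudocount of 0.1, with the filter removed or raised to 1, with mice rescaled to an equal sum, quantile normalized or median centred, with the compared groups alone, without moderation, with a block for the replicate number, and without each mouse in turn. Leaving out LKO HFD mice 3, 4 and 5 was added after seeing the data.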

Additional observations from a re-analysis of the deposited data

Results flagged for a closer look

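Within 32 sets of values (8 genes in 4 groups), 3 had a mouse whose gap to its nearest neighbour exceeded Dixon's 95% limit for the range of its group, where chance alone gives about 5%. Mt2 in LKO HFD mouse 5 was at 167 RPKM, beside 42.6 RPKM in the next highest mouse. Slc30a1 in FF CD mouse 4 was at 5.63 RPKM, beside 8.39 RPKM in the next lowest mouse. Slc39a5 in LKO HFD mouse 2 was at 0.356 RPKM, beside 0.172 RPKM in the next highest mouse.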

How the results depend on the processing

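Mt1 and Mt2 were called between the diets in FF mice under every alternative run (limma, adjusted p at most 0.0143 and 0.0142). When each mouse was left out, 2 or 3 members were called, beside 605 to 802 of all 11090 tested genes. Between the genotypes no member was called on CD under any alternative, beside 6 to 45 of all tested genes. On HFD, 0 to 1 was called when each mouse was left out, beside 132 to 318 of all tested genes. With quantile normalization 1 was called there (Slc39a14, limma, adjusted p = 0.0458), beside 254. Between the diets in LKO mice 3 members were past the thresholds, beside 141 of all 11090 tested genes. They became 1 with no filter (47 of all 20071 genes), 0 with only the groups compared (40 of all 11090) and 0 without LKO HFD mice 3, 4 and 5 (5 of all 11090). When each mouse was left out they were 0 to 3, beside 17 to 237 of all tested genes. For the difference between the diet responses, 1 member (Slc39a5) was called with no filter, beside 169 of all 20071 genes. When each mouse was left out, 0 to 1 was called, beside 156 to 392 of all 11090 tested genes. The r between Mt1 and Mt2 was 0.895 to 0.966. The causes were not tested, except that dropping groups or mice leaves fewer samples and that Slc39a5 is tested only without the filter.

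The main fit does not pair the mice by replicate number. The deviations of mice with the same number correlated at a median of 0.05 (-0.17 to 0.33, with 10 of 25 pairs over 0.1). For mice of different groups with other numbers the median was -0.0125 (-0.35 to 0.39, with 26 of 96 pairs over 0.1). Whether mice of the same number share more was not tested. With the replicate block, Mt1 and Mt2 differed by 2.64 and 2.78 between the diets in FF mice (limma, adjusted p of 0.0101 and 0.00916). There, 2 members were called, beside 789 of all 11090 tested genes, and 2 between the diets in LKO mice, beside 166. No other count of members changed.

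Of single values that were not called, Slc39a14 between the diets in FF mice was 0.0686 when rescaled to the same sum and -0.107 to 0.0736 when each mouse was left out, and Slc39a8 between the genotypes on HFD was -0.0841 to 0.00209. Without LKO HFD mice 3, 4 and 5, Mtf1 and Slc30a10 there were -0.0674 and -0.19. Slc39a5 between the genotypes on CD had an exact permutation p of 0.0286 after rescaling. At 0 to 55 reads per mouse, depth limits Slc39a5 most.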
